A study of Homo sapiens with 6 samples.

Results

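Of the 242682 annotated splice junctions listed for K562 cells, 1286 (0.530%) were covered by multi-mapped reads and by no uniquely mapped read. A splice junction is the pair of intron ends that a read spans, and a multi-mapped read is one that the aligner placed at more than 1 position of the genome. The junctions described here had 50 or more pooled multi-mapped reads, no unique read in any library that listed them, and an entry in the annotation the authors used. All junctions listed, annotated or not, numbered 780566. The members were chosen by the pooled unique and multi-mapped reads themselves, so levels pooled over the libraries are a description. The difference between genotypes did not enter the choice.

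K562 is a human erythroleukaemia line. In all, 3 libraries came from K562 with a knock-in of wild-type U2AF1, the control that carries the editing step without the mutation, and 3 from K562 with U2AF1 S34F. U2AF1 is the small U2AF subunit, which contacts the AG at the acceptor end of introns, and S34F changes a serine of its zinc finger to phenylalanine. Poly(A)+ RNA was sequenced as paired ends. The labels give neither the zygosity of S34F nor whether each line was 1 clone, and do not say whether replicates were separate cultures, so p-values measure only the spread between these libraries. Unique junction reads ranged from 18074706 to 39279169 per library, the deepest being S34F replicate 3, and multi-mapped reads made up 6.57% to 8.08% of the junction reads. Levels are given as RPM, the multi-mapped reads of a junction for every 1000000 unique plus multi-mapped junction reads of the library, with 0 where a library did not list the junction. A multi-mapped read was counted at each place it fitted, so copies of a gene share the same reads, and a sum over copies counts those reads again.

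The human genome holds many recent duplications. The pseudoautosomal ends of X and Y recombine with each other and carry the same genes, segmental duplications on chromosomes 1, 5, 7, 15 and 16 hold families such as NBPF, NPIPA and GOLGA8, and some genes repeat an exon in tandem. Where copies are identical over the length of a read, the read cannot be assigned to 1 of them. The files hold no gene names. Genes are named here from general knowledge of positions in hg19, the build given in the submitters' processing notes. For 9 genes of X and Y, order, strand and length were checked against RefSeq's GRCh38.p14 gene table.

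The likeness of such copies can be seen in the bases before their start sites, which RefSeq gives for GRCh38.p14. The stretches below, each of 120 bases, come from the pair of gene copies with the most reads among the members, SLC25A6 on X and Y at chrX:1392114-1392233 and chrY:1392114-1392233 (minus strand), and from NPIPA6 at chr16:16331651-16331770 (plus strand) and NPIPA9 at chr16:18376946-18377065 (minus strand), members of the family whose splicing differed between genotypes. Capitals mark the bases that differ within a pair.
SLC25A6 on X: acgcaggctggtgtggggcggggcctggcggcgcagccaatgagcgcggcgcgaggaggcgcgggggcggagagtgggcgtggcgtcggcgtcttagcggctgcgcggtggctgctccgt
SLC25A6 on Y: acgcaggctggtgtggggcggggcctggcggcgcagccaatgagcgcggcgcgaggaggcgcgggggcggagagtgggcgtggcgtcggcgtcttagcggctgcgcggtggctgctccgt
NPIPA6: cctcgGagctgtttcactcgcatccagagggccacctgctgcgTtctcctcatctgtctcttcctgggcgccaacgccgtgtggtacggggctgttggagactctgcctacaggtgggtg
NPIPA9: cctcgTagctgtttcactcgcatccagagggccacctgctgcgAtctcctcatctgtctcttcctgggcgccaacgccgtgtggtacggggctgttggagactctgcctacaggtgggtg
The SLC25A6 stretches were the same at every base, and over the 250 bases before the start the 8 genes of X and Y with an entry for both chromosomes (SLC25A6, ASMTL, CD99, DHRSX, GTPBP6, PLCXD1, PPP2R3B and VAMP7) were each identical at 250 of 250. NPIPA6 and NPIPA9 were identical at 248 of 250. The windows of NPIPA7 and NPIPA8 matched at 45 of 250, and those of NPIPA6 and NPIPA7 at 57. Windows were compared base by base without alignment, so a low match does not show that the genes differ in sequence.

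Whether the junctions lay in near-identical gene copies was checked by looking for a partner. This was another listed junction with the same intron length and near-equal multi-mapped counts. The differences in each library, added up without sign, had to be at most 10% of the larger pooled count. A partner was found for 785 of the 1286, and 501 had none. Among the members alone, 616 (47.9%) fell into 236 groups of copies, of which 187 were pairs and the largest held 33 junctions. In 355 cases another member of the same intron length had exactly the same count. Counting each group once left 906 distinct junctions.

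The groups of copies were of 3 kinds. X and Y shared 92 groups with 184 members, 93 groups with 251 members lay at separate loci of 1 chromosome at a median span of 692760 nt, and 51 groups with 181 members repeated within 1 locus. No group joined any chromosomes other than X and Y. Placing members of 1 strand within 50000 nt of each other in a locus gave 360 loci, of which 209 held 1 member and 22 held 10 or more.

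The junctions without a partner of the same intron length were of several sorts. In 135 of the 501, another junction used the same donor or acceptor and had a pooled multi-mapped count within 10%. Unique reads of that other junction were not compared. The other 366 had a partner of neither sort.

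A second sort of junction stood out by its overhang, the longest stretch of a spliced read on the shorter side of the junction. In 154 members (12.0%) the largest overhang was 10 nt or less, against 664 of 123486 other annotated junctions with 50 or more reads (0.538%). Only 2 of the 154 had a partner of the same length, and 115 stood alone in their locus. In 81, another junction with the same donor or acceptor had a pooled multi-mapped count within 10%. They held 2.65% of the members' reads, and the most-read of them was chr12:56120749-56120865, with 358 reads and an overhang of 1 nt. For these 154 the partners that near-identical gene copies would give were nearly all missing. The 1130 members with an overhang of 20 nt or more held 97.3% of the reads, and 783 of them (69.3%) had a same-length partner.

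**Figure D1:**
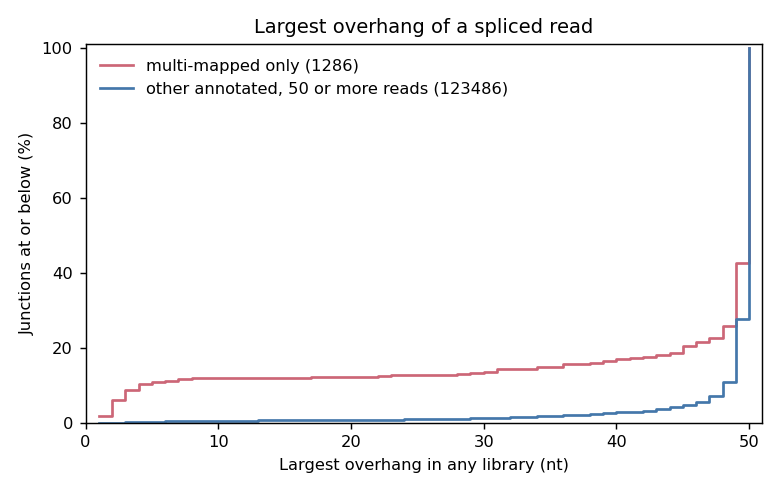
Cumulative share of junctions (%, y axis) by the largest overhang in any library (nt, x axis), for the 1286 multi-mapped-only junctions and for the 123486 other annotated junctions with 50 or more reads. Among the multi-mapped-only junctions 12.0% lie at 10 nt or less, against 0.538% of the others, and both curves rise steeply at the longest overhangs.

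The members had few reads each. The median was 162 pooled reads and the highest 14375, with 126 at 1000 or more, and 1267 of the 1286 had a read in all 6 libraries. Exactly 10 members had 50 reads, and 10 junctions outside the set had 49. Examples just inside the minimum were chr15:72979182-72987517 and chr19:47108563-47109083, each with 50 pooled reads and overhangs of 3 and 1 nt. Examples just outside it were chr1:143664197-143744200 and chr12:6315251-6334591, each with 49 reads and overhangs of 3 and 5 nt. At any depth, 24092 annotated junctions had multi-mapped reads only, and 14189 of these had a single read.

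Intron lengths of members lay closer together than those of the rest. The median was 957 nt (quartiles 603 and 3465.5) against 1449 nt (463 and 3867) for the other annotated junctions with 50 or more reads. Between 500 and 1000 nt lay 31.6% of members against 14.3% of the others. Every copy was counted here. The 272 members in 4 loci of chromosome 1, described below, had a median of 709 nt, and 210 of them were in groups of copies. Lengths were not compared with each group counted once or without these loci. The intron motif was GT-AG in 1259 members, GC-AG in 12 and none of the usual kinds in 15, while no member had AT-AC. In the other junctions 98.8% were GT-AG, against 97.9% of members.

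Chromosome 1 held 345 members, X 134, chromosome 16 118 and Y 99. Of the 109 annotated junctions of Y with 50 or more reads, 90.8% were members, against 3.48% of the 3846 of X. Junctions at both ends of X recurred on Y at fixed distances. At the left end, 77 junctions of X recurred on Y at 50000 nt lower, between chrX:193062-2658819 and chrY:143062-2608819. At the right end, 32 recurred at 95896994 nt lower.

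**Figure D2:**
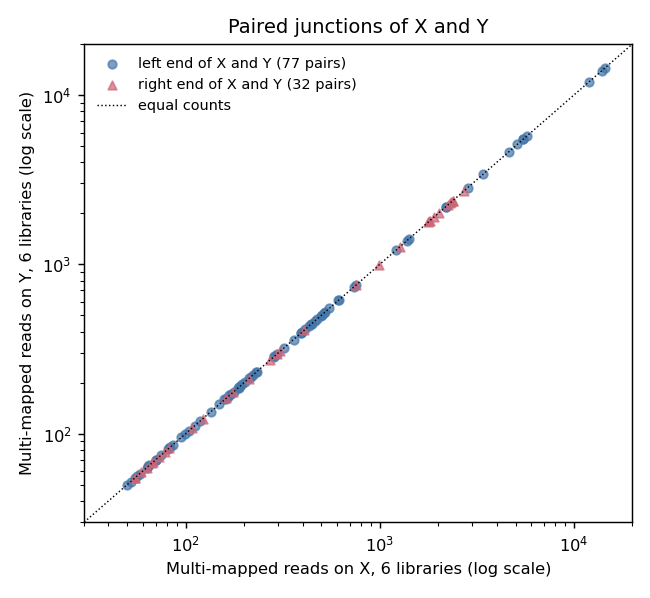
Multi-mapped reads summed over the 6 libraries for each junction of X (x axis, log scale) and its counterpart on Y (y axis, log scale), for 77 pairs at the left end and 32 at the right end. All points lie on the line of equal counts, and in no library did a pair differ by more than 1 read.

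Of the 77 pairs at the left end, 71 had equal counts in all 6 libraries, and of the 32 at the right end, 29 did. The multi-mapped reads of these pairs fitted X and Y alike, so a count on Y does not show that Y was transcribed. In 64 of the left pairs both junctions were members. In 7 neither was a member. No single junction of these pairs had more than 5 unique reads, so junctions with the same multi-mapped reads fell on either side of the rule through a few unique reads.

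SLC25A6, the ADP/ATP carrier of the inner mitochondrial membrane, had the most-read members. Its Y junction chrY:1456313-1458133 was the most-read member of all, with 84.0, 76.2 and 65.2 RPM in the 3 wild-type libraries and 87.8, 99.8 and 106 in the 3 S34F libraries. Every S34F library lay above every wild-type library. The log2 fold change was 0.38 (SE 0.17), and edgeR's adjusted p of 0.368 did not pass the threshold.
A junction 3′ of it in the gene, chrX:1505653-1506171, had 75.1, 74.3 and 61.6 RPM in the wild-type libraries against 86.9, 100.2 and 104 in the mutant ones, a log2 fold change of 0.47 (SE 0.17) with an adjusted p of 0.270. The next Y junction, chrY:1458621-1460791, had 71.9, 66.3 and 58.0 RPM in wild type against 73.9, 84.5 and 82.5 in S34F, again without overlap, at a log2 fold change of 0.30 (SE 0.17) and an adjusted p of 0.481. The X counterpart of the first junction and the Y counterpart of the second had a few unique reads and so were not members, though they shared the same multi-mapped reads. The mean over the 6 junction pairs of the gene was 35.5 ± 4.02 RPM in wild type and 46.4 ± 3.88 in S34F (SD, n = 3 each).

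CD99, a surface glycoprotein of leukocytes, lay on the other side. Its 11 junction pairs averaged 26.1, 26.0 and 20.3 RPM in wild type against 18.0, 17.1 and 18.6 in S34F, so the S34F libraries were all lower. This mean over the gene was not tested. Only 4 of the 11 were members on X, because the gene had 17 unique reads there. VAMP7, a vesicle SNARE at the right end, averaged 10.1 ± 0.765 in wild type and 9.91 ± 1.41 in S34F over 9 pairs, and its groups overlapped.

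The other genes of the left end had lower levels. PLCXD1, which encodes a protein with a phospholipase C domain, averaged 5.17 ± 0.772 in wild type and 4.06 ± 0.139 in S34F, and each S34F library lay below each wild-type library. GTPBP6, a GTP-binding protein, averaged 2.59 ± 0.450 and 3.13 ± 0.829, and ASMTL averaged 2.38 ± 0.145 and 2.68 ± 0.359. AKAP17A, a kinase-anchoring protein with a role in splicing, averaged 1.93 ± 0.134 and 1.75 ± 0.320.
In those last 3 genes the groups overlapped. PPP2R3B, a regulatory subunit of protein phosphatase 2A, averaged 1.06 ± 0.115 and 1.09 ± 0.109, and DHRSX averaged 0.799 ± 0.0799 and 0.892 ± 0.163, again overlapping. PPP2R3B and ASMTL had no unique read in any of their 12 junctions on either chromosome, so they were listed whole. The gene means were not tested. In the edgeR test per junction described below, 128 members of the left end were tested and 0 passed the adjusted threshold. At an unadjusted p under 0.05 there were 10 (7.81%), against 12.7% of all junctions tested. At the right end 58 members were tested and 0 passed the adjusted threshold, but 25 (43.1%) had an unadjusted p under 0.05, 23 of them higher in S34F. DESeq2 called 4 of the right-end members, with 1.14% of all junctions called. Without S34F replicate 3 their median log2 fold change in edgeR fell from 0.51 to 0.13. X and Y copies share reads, so these members are not independent.

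On chromosome 1, 4 loci held the most members, in the region of the NBPF family, whose genes repeat a unit coding for Olduvai domains many times over. They lay at chr1:148254432-148335534 on the minus strand with 78 members, and on the plus strand at chr1:144149942-144224002 with 68, chr1:146403758-146465877 with 64 and chr1:145311155-145368440 with 62. These 272 junctions were 21.2% of the members and held 27.9% of the members' reads. Introns of 709 nt (52 junctions), 719 nt (34) and 714 nt (31) made up 43.0% of them. Of the 1014 members elsewhere, 2 had one of these lengths.

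**Figure D3:**
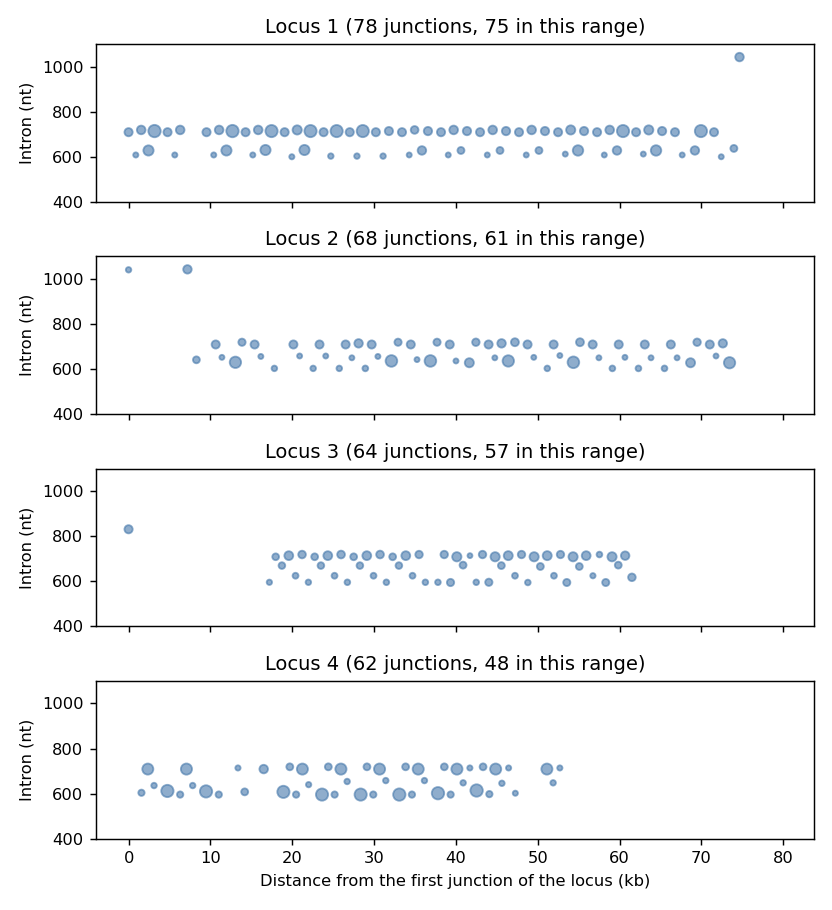
Intron length (nt, y axis) of junctions in the 4 largest loci against the distance from the first junction of the locus (kb, x axis), with larger points for more pooled multi-mapped reads. A few longer introns of each locus, counted in the panel titles, lie above the range drawn. Introns near 709 nt and shorter introns alternate along each locus.

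The 709-nt introns recurred at a median spacing of 4765 nt in the first locus, 4738 nt in the second, 4764.5 nt in the third and 4730 nt in the fourth. The largest group of copies lay here: 33 junctions of 709 nt, divided between the first and second loci and so between both strands, with 580 to 590 pooled reads each. One of them, chr1:144160588-144161296, had 55, 86 and 40 reads in wild type against 179, 39 and 181 in S34F. Because the copies share reads, the 33 values repeat 1 measurement. A second group of 9 junctions of 709 nt, in the locus at chr1:145311155-145368440, had 1264 to 1292 reads each.

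Summed over the 272 junctions, the level was 611, 812 and 610 RPM in wild type against 1510, 660 and 1028 in S34F. S34F replicate 2 lay within the range of the wild-type libraries, and S34F replicate 1 was the highest. All 272 were tested and none passed edgeR's adjusted threshold, nor did any with DESeq2. At an unadjusted p under 0.05 there were 60 with edgeR (22.1%, against 12.7% of all junctions tested), all higher in S34F, and 113 with DESeq2. As 210 of the 272 were in groups of copies that share reads, these junctions are not independent. Without S34F replicate 1, edgeR gave 0 at that p and the median log2 fold change fell from 0.72 to 0.34. Without S34F replicate 2 there were 173 at that p and the median was 0.94, and without wild-type replicate 2 there were 116 and 0.89. The share of all junctions at that p is not given for DESeq2 or with 1 library left out. Those counts show only how the result moved. What sets S34F replicate 1 apart was not tested.

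**Figure D4:**
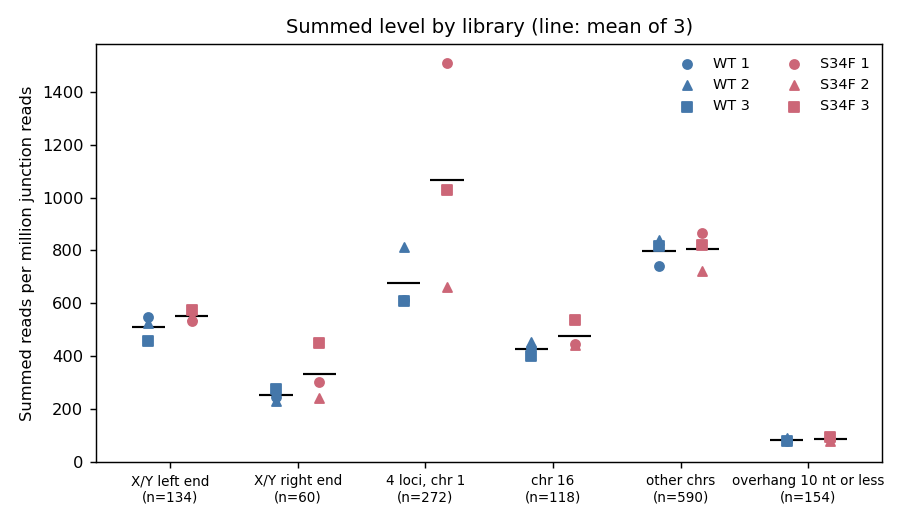
Summed RPM (y axis) for sets of the multi-mapped-only junctions (x axis, with the number of junctions), 1 point per library and a line at the mean of 3. The 4 loci of chromosome 1 spread from 660 to 1510 in S34F, and the right end of X and Y from 241 to 449.5. Junctions with short overhangs are also counted in the set of their chromosome.

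The summed level of all 1286 was 2788, 3046 and 2736 RPM in wild type against 3883, 2823 and 3640 in S34F, with means of 2857 ± 166 and 3449 ± 555 (SD, n = 3 each). S34F replicate 2 lay between the wild-type libraries, so the groups overlapped. With each group of copies counted once the means were 1971 ± 90.8 and 2266 ± 231. At the right end of X and Y the sums were 247, 231 and 276 RPM for wild type against 303, 241 and 449.5 for S34F, the last from the deepest library. The members with an overhang of 10 nt or less summed to 82.8 ± 5.95 and 85.7 ± 6.61.

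Abundance was tested per junction with edgeR's quasi-likelihood test over all 120880 annotated junctions with 10 or more reads in at least 3 libraries, of which 1165 of the 1286 were part. At a Benjamini-Hochberg adjusted p under 0.05, 6 members were called, 2 higher and 4 lower in S34F. Over all junctions tested, 0.305% were called, 0.136% higher and 0.169% lower, and 6 of 1165 is of that order. At an unadjusted p under 0.05 there were 239 members (20.5%), 192 of them higher, against 12.7% of all junctions. The median log2 fold change was 0.25 for the members, 0.17 with each group of copies counted once, and 0.03 over all junctions tested. The number of calls moved with single libraries. Without wild-type replicate 2, or without S34F replicate 3, edgeR called none of the members, with 241 and 131 at an unadjusted p under 0.05. Without S34F replicate 1 it called 1 member. The shares of all junctions at that unadjusted p in these fits are not given. DESeq2 called 14 members, with 1.14% of all junctions called.

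Both higher members lay in IFI16, an interferon-inducible sensor of DNA. chr1:159015255-159021468 had 10, 8 and 7 reads in wild type against 38, 45 and 77 in S34F, and chr1:159002482-159019221 had 6, 4 and 6 against 22, 28 and 55. In each junction every S34F library lay above every wild-type library. The log2 fold changes were 2.46 (SE 0.36, edgeR adjusted p = 0.0125) and 2.45 (SE 0.44, adjusted p = 0.0328). The first lost its call without wild-type replicate 2 (adjusted p = 0.0750) and without S34F replicate 3 (0.0750), and the second without wild-type replicate 2 (0.168) and replicate 3 (0.0601) and with TMM scaling (0.0507). The filter of 10 reads in 3 libraries was passed mainly through the S34F libraries, where both are high. The first also had 10 reads in wild-type replicate 1. The second reached 10 reads in the S34F libraries only, and without any 1 of these it was no longer tested. With a filter of 50 pooled reads instead, the adjusted p-values were 0.0160 and 0.0391.

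These junctions had no partner of the same length, yet each had a twin that shares a splice site. The junction chr1:159015255-159021468 had 185 pooled multi-mapped reads and chr1:159019390-159021468, which joins the next exon to the same acceptor, also had 185, with the same number in every library. Likewise chr1:159002482-159015086 had 122 multi-mapped reads against 121 for chr1:159002482-159019221, which leaves the same donor. The exons between these splice sites, at chr1:159002314-159002481, chr1:159015087-159015254 and chr1:159019222-159019389, were each 168 nt long. The twins had 8 unique reads each and so were not members. The reads fitted a path that skips 1 of the equal-length exons and a path that does not.

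The rest of the gene moved with these junctions. The 14 other annotated junctions of the interval had 2.01, 1.09 and 3.90 unique RPM in wild type against 7.16, 11.7 and 12.0 in S34F. The level of the 2 members therefore moved with that of junctions that reads fit uniquely.

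The 4 lower members were copies of 1 intron of 496 nt on chromosome 16, in the NPIPA family, a set of recently duplicated primate genes. RefSeq lists NPIPA6 and NPIPA7 on the plus strand of chromosome 16 and, further along, NPIPA8 and NPIPA9 on the minus strand, and the 4 junctions lay in that order of strands. chr16:16442590-16443085 (plus) and chr16:18453309-18453804 (minus) had the same counts in every library: 63, 66 and 33 reads in wild type against 5, 11 and 25 in S34F. chr16:16485954-16486449 had 61, 69 and 34 against 5, 12 and 27. chr16:18413156-18413651 had 42, 41 and 21 against 4, 7 and 18.

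In every copy each S34F library lay below each wild-type library, and as the copies share reads they are not independent. The log2 fold change was -2.21 (SE 0.38, edgeR adjusted p = 0.0293) for the first pair, -2.13 (SE 0.38, adjusted p = 0.0349) for the next and -2.07 (SE 0.42, adjusted p = 0.0491) for the last. The first pair lost the call without wild-type replicate 2 (edgeR adjusted p = 0.133), S34F replicate 1 (0.0529) or S34F replicate 3 (0.101), and so did the third copy (0.170, 0.0607 and 0.113), while the fourth lost it without any 1 of the 6 libraries. With TMM scaling the third copy and the fourth also lost the call (0.0520 and 0.0638), and the fourth lost it with unique totals (0.0513) and a filter of 50 pooled reads (0.0561). The longer junctions of 1359 nt from the same donors went the other way in level. chr16:18452446-18453804 had 8.84, 7.26 and 6.94 RPM in wild type against 13.6, 11.5 and 15.7 in S34F, with a log2 fold change of 0.83 (SE 0.20, adjusted p = 0.0884), which missed the threshold.

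Acceptor usage, the share of a donor's reads that goes to 1 acceptor, was tested in the same libraries for the 232 members whose donor had a choice. In all, 11 (4.74%) were called at an adjusted p under 0.05 and 10 percentage points, against 3.33% of all junctions tested, and 6 of the 11 were these chromosome 16 junctions. The 11 calls were not independent. Copies share reads, and on chromosomes 5 and 16 both acceptors of 1 donor were counted. The share of 4.74% therefore counts the same choices repeatedly, and no count with copies collapsed was made for usage. From the donor of chr16:16442590-16443085, 20.7%, 25.5% and 18.5% of reads took the 496-nt intron in wild type against 1.42%, 4.64% and 3.63% in S34F. The means were 21.6% ± 3.56 and 3.23% ± 1.64 (SD, n = 3 each), with a change in log2 odds of -3.07 (SE 0.36) and an edgeR adjusted p of 4.41e-06. In the copy at chr16:18413156-18413651 the means were 14.7% ± 2.26 and 2.24% ± 0.984, with an adjusted p of 1.48e-05. The calls of the chromosome 16 copies held without any 1 of the 6 libraries.

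The 496-nt intron ended at an exon of 70 nt that the 1359-nt junction skips. Inclusion of this exon was tested after the abundance calls had been seen, with reads of both flanking junctions against reads of the skipping junction, over 13477 annotated exons of this kind. It could be measured in 3 of the copies: chr16:16443086-16443155 and chr16:16486450-16486519 on the plus strand and chr16:18453239-18453308 on the minus strand. In the first, inclusion was 18.5%, 23.9% and 19.2% in wild type against 1.70%, 5.24% and 4.12% in S34F. In the third, where all flanking and skipping junctions were members, it was 18.2%, 23.8% and 18.9% against 1.71%, 5.24% and 4.11%. The exon was included less in all 3 S34F libraries.

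The change in log2 odds of inclusion was -2.80 (SE 0.35), -2.73 (SE 0.35) and -2.78 (SE 0.35) in the 3 copies, with edgeR adjusted p-values of 4.27e-06, 5.45e-06 and 4.83e-06. Which copy the transcripts came from could not be told from these reads.

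**Figure D5:**
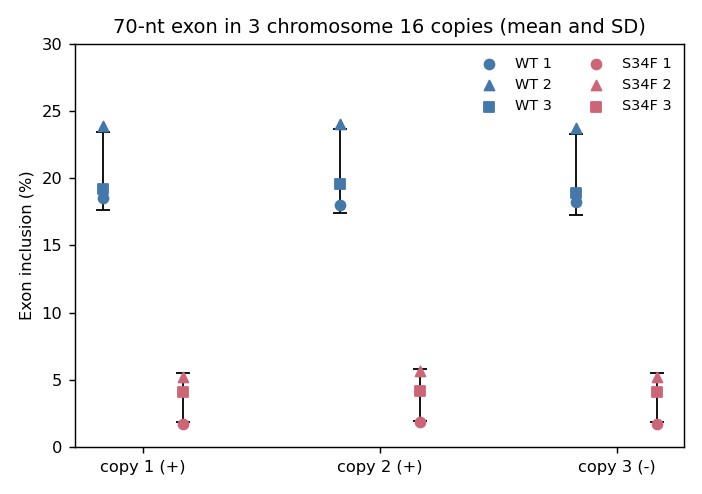
Inclusion (%, y axis) of a 70-nt exon in 3 copies on chromosome 16 (x axis, with strand), 1 point per library with the mean and SD of 3. Wild-type points lie between 18.0 and 24.0 and S34F points between 1.70 and 5.64 in each copy, and the copies repeat the same reads.

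In all, 119 such exons had a member among their junctions, and 4 (3.36%) were called, against 4.06% of all exons tested. The copies on chromosome 16 were counted as separate calls here. The remaining one was an exon of 140 nt at chr9:42675825-42675964, included at 26.2%, 27.1% and 34.5% in wild type against 13.5%, 16.7% and 12.4% in S34F (log2 odds -1.35, SE 0.42, edgeR adjusted p = 0.0458). Leaving out any 1 library other than wild-type replicate 1 ended this call, with adjusted p-values from 0.0737 to 0.215. An exon of the same length at chr9:70875773-70875912 had means of 25.5% ± 7.33 and 14.5% ± 1.97, with an adjusted p of 0.142.

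The other calls of acceptor usage lay on chromosomes 5 and 14. The donor of chr5:69322343-69328141, in SERF1, a small gene that recurs as SERF1A and SERF1B, sent 62.6%, 62.5% and 71.4% of its reads to the nearer acceptor in wild type against 42.2%, 41.0% and 47.0% in S34F (log2 odds -1.28, SE 0.31, adjusted p = 0.0123). Its other junction, chr5:69322343-69337350, rose from 33.9% ± 5.30 to 55.3% ± 4.86 (SD, n = 3 each; adjusted p = 0.0171). The bases before the starts of SERF1A and SERF1B were identical at 250 of 250. All S34F libraries lay outside the wild-type range. Both calls were lost without wild-type replicate 3 (adjusted p of 0.0505 and 0.0659), S34F replicate 1 (0.0558 and 0.0746) or S34F replicate 2 (0.0597 and 0.0843), with multi-mapped reads alone (0.0557 and 0.122) and with DESeq2 (0.105 and 0.140).

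A pair of copies of an 849-nt intron on chromosome 5, with 2641 reads each, was used in 94.7% ± 6.09 of cases in wild type and 73.4% ± 2.42 in S34F at 1 copy, with an adjusted p of 0.0197. Without S34F replicate 1, 2 or 3 the adjusted p was 0.0671, 0.0691 and 0.0818, and with multi-mapped reads alone 0.201. The values of the other copy repeat the same reads. Inclusion of the 201-nt exon that follows this intron missed the threshold at both copies, with edgeR adjusted p-values of 0.0705 and 0.0723. On chromosome 14, chr14:19680686-19683691 took 32.3%, 14.1% and 15.2% of its donor's reads in wild type against 9.52%, 9.86% and 5.86% in S34F (adjusted p = 0.0218). Wild-type replicate 1 stood above the other libraries, and without it the adjusted p was 0.266. The call was also lost without S34F replicate 1 (0.0615), replicate 2 (0.0554) or replicate 3 (0.195), with multi-mapped reads alone (0.278) and with DESeq2 (0.267).

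The most-read members beyond X and Y belonged to few loci. chr16:30296779-30297487 had 2760 pooled reads, with 18.1, 18.6 and 16.9 RPM in wild type against 14.2, 22.1 and 14.6 in S34F, which overlapped. chr7:72609742-72609918 had 3174 reads and chr7:74165749-74166421 had 2931, in the blocks of chromosome 7 that hold GTF2I, a transcription factor gene, and its pseudogene copies. The former had 18.0, 17.9 and 16.6 RPM in wild type against 27.3, 16.6 and 19.8 in S34F, and the latter 15.4, 17.4 and 16.3 against 28.0, 15.2 and 16.5. In both, S34F replicate 1 was the highest library and S34F replicate 2 the lowest.

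chr16:16339032-16341251 had 2754 reads, with 18.8, 26.2 and 18.7 RPM in wild type against 13.4, 14.3 and 12.5 in S34F. Each S34F library lay below each wild-type library, at a log2 fold change of -0.67 (SE 0.19) and an adjusted p of 0.165. An intron of 2478 nt on chromosome 5 had 3292 reads, with 22.1 ± 2.79 RPM in wild type and 18.6 ± 1.83 in S34F, and an adjusted p of 0.606. The pair at chrX:155127914-155130160 and chrY:59230920-59233166 in VAMP7 had 2698 reads each, with 16.4 ± 1.03 and 16.2 ± 2.48. None of these passed the threshold.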

How the data were processed

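Per the submitters' processing notes, the authors aligned the reads to hg19 with STAR; its version, the annotation and the junction filters are not given in the sources used here. The deposited junction tables hold raw counts of unique and multi-mapped reads per junction, with no normalization, and the largest overhang. Members were found from these counts. Unique plus multi-mapped counts were fitted in edgeR 4.0.16 (quasi-likelihood, robust) in R 4.3.3 with library sizes equal to total junction reads and genotype as the only term, over all annotated junctions that passed the filter. Acceptor usage and exon inclusion were tested as an interaction of count type and genotype with an intercept per library. RPM was computed from the same counts. The members, lists and tests were chosen with earlier results of these data known. In simulated data of 120880 junctions, 62% of the 2-fold and 100% of the 4-fold changes put into abundance were called. In simulated data of 34646 junctions, 94.5% of the 8-fold changes put into usage odds were called. The share called at the read depth of the members, with a median of 162 pooled reads, was not tested. Junctions named are the 10 most read, those called, those beside the read minimum, examples of the largest groups and loci, globin junctions and the genes of X and Y, 1 value standing for copies. Alternatives were TMM, unique totals, DESeq2 1.42.0, other filters, multi-mapped reads alone, a replicate block and leaving out each library. Cell type markers, gene families by name and splice-site sequences were not analysed here.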

Additional observations from a re-analysis of the deposited data

How the results depend on the processing

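Over all annotated junctions, 369 were called with edgeR, 183 with TMM scaling, 1376 with DESeq2, 4738 without the read filter, 51 with multi-mapped reads alone and 988 with the replicate block, and 22 to 827 when 1 library was left out. Of the members, 6 were called, 3 with TMM scaling, 14 with DESeq2, 124 without the read filter, 10 with multi-mapped reads alone, 12 with the replicate block and 3 among members with 200 or more pooled reads, and 0 to 6 when 1 library was left out. The replicate numbers did not pair the libraries, as deviations of same-numbered libraries correlated at -0.17, -0.14 and -0.013. Acceptor usage gave 11 calls, 6 with multi-mapped reads alone, 10 with the replicate block, and 6 to 11 without 1 library (6 without S34F replicate 1 and 6 without S34F replicate 2). Exon inclusion, chosen after seeing the data, gave 4 calls, 5 with the replicate block, and 3 to 7 without 1 library (7 without wild-type replicate 1). These counts of members are given without the share called over all junctions or exons under the same alternative. They show only how the calls moved, and not whether members differed from the rest. The summed level had a log2 ratio of 0.27, 0.108 with levels set against multi-mapped reads alone, 0.201 with 1 junction per copy group, and 0.178 to 0.397 without 1 library. Of 601 values of named junctions and exons under an alternative, 525 kept direction and side of the threshold, 55 lost the call, 9 gained one and 12 changed sign, all of these uncalled, close to 0 and with 1 library left out. With 1 library left out the log2 fold change ran from -0.31 to 0.031 at chr16:30296779-30297487, from -0.11 to 0.25 at chr17:34581969-34582949, from -0.043 to 0.44 at chr7:74165749-74166421, from -0.13 to 0.090 at chrX:155127914-155130160 and from -0.47 to 0.14 at chrX:155233226-155233341, and likewise at the Y copies of the X junctions. The cause of these shifts was not tested. Few reads per junction and reads shared by copies limit the precision.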

Other observations

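Globin genes, which K562 cells express, had mostly multi-mapped reads but also unique reads, and so were not among the members. HBA1 and HBA2, the alpha globin genes, have almost the same sequence. The HBA2 junction chr16:223007-223123 had 58021 multi-mapped and 569 unique reads, and the HBA1 junction chr16:226811-226927 had 58011 and 412. The HBA2 junction stood at 299, 390 and 273 RPM (unique plus multi-mapped reads) in wild type against 469, 508 and 293 in S34F. HBG1 and HBG2, the fetal gamma globin genes, had the highest levels: chr11:5270821-5270942 in HBG1 had 367326 multi-mapped reads (99.1% of its reads) and chr11:5275745-5275866 in HBG2 had 368334 (80.3%). HBG1 had 3213 unique reads at that junction and HBG2 had 90516. At chr11:5269718-5270597 HBG1 had 86858 unique reads (82.9% multi-mapped), and at chr11:5274636-5275521 HBG2 had 139815 (74.8%).

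Among the 15 members with none of the usual intron motifs, the most read was chr6:13615854-13615940, 87 nt long, with 1686 pooled reads, followed by chr6:13618369-13620436 with 1558. Beyond the annotation, 1145 junctions had 50 or more multi-mapped reads and no unique read.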
